A study of Mus musculus with 4 samples.

Results

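Fatty acid oxidation and its control by the nuclear receptor PPARα were followed through 36 listed genes in hearts lacking *Jun* in striated muscle. Members were all probe sets whose single gene symbol in the platform annotation is one of these genes, a rule that applies no threshold on the signals. In this way 33 genes were measured by 65 probe sets, out of 18193 genes and 45037 probe sets on the array. The other members have no value here, since *Acsl1* and *Ucp2* carry no probe set of their own in that annotation and *Cpt1b* appears only on a probe set shared with other genes. RNA from whole hearts of 10 weeks old mice was hybridised to Affymetrix GeneChip arrays of the mouse genome, 1 array per heart. *Jun* f/f mice (n = 2) carried floxed *Jun* alleles and no Cre, and *Jun* Δmu mice (n = 2) carried the same alleles with MCK-Cre, which is driven by the muscle creatine kinase promoter in heart and skeletal muscle. Both genotypes were littermates on a mixed 129/Ola and C57BL/6 background. Growth notes given with the samples describe plated ventricle cells instead of whole hearts, a conflict that was not resolved. The sources used here give neither sex nor feeding state nor hour of harvest.

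The targeted gene checked the labels. *Jun* signal, on the log2 scale of the deposited values, was 8.30 and 8.999 in *Jun* f/f hearts and 7.02 and 7.14 in *Jun* Δmu hearts, a difference of -1.57 (standard error 0.23). This left 33.8% of the *Jun* f/f signal, and both probe sets of the gene were lower on each *Jun* Δmu array. Whole-heart RNA mixes muscle with other cells, so fewer cells of a type and less RNA per cell cannot be told apart in any value given here. Summed signal of 10 cardiac muscle markers, such as *Myh6* and *Actc1*, lay between 17.79 and 17.81 on all 4 arrays. Of 10 markers of fast skeletal muscle, 6 were below the array median on every array.

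The adult heart draws most of its energy from fatty acids. They are taken up by carriers, activated to acyl-CoA, moved into mitochondria as carnitine esters and shortened step by step by the β-oxidation enzymes, which pass electrons to the respiratory chain through electron transfer flavoprotein. PPARα binds fatty acids and raises transcription of many of these genes, and a smaller group of its targets, among them *Pdk4*, *Ucp3*, *Acot1* and *Angptl4*, responds strongly to fasting. In hearts this group is known to follow the supply of circulating fatty acids.

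The fasting-responsive targets held the members that changed. *Acot1*, *Pdk4* and *Ucp3* were lower in *Jun* Δmu hearts past the threshold of the study's methods, a difference of more than 1.3-fold (0.38 on the log2 scale) with an unadjusted p under 0.05, here by limma. No other member passed by its brightest probe set, the one used for each gene below. Thus 3 of 33 genes were lower and 0 higher, against a background of 0.786% of all genes lower and 0.665% higher. Counted by probe set, 3 of 65 were lower and 1 was higher, where 0.959% and 0.568% of all probe sets did so. After adjustment over all probe sets limma called 0 members, and adjusted p ranged from 0.896 to 1.00. By limma 3 of the 33 genes had an unadjusted p under 0.05, namely *Acot1*, *Pdk4* and *Ucp3*. By the methods' t-test 3 other genes did, none of them past 1.3-fold. *Acot1*, *Pdk4* and *Ucp3* were also in the study's own table of changed genes, chosen on these arrays, so that their calls here are no independent evidence.

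To set the genes that moved together beside their sequence, the 250 bases before the transcription start of these 3 genes are shown, 5′ to 3′ on the gene's strand, from RefSeq on GRCm38.p6. Capitals mark AGGTCA, the hexamer that PPARα and related nuclear receptors recognise.
*Acot1* (chr12:84009252-84009501, plus strand): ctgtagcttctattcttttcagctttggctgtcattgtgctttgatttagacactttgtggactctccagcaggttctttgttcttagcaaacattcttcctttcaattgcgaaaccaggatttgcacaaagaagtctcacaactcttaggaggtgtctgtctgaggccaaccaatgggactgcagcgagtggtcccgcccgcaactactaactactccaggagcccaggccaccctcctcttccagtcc
*Pdk4* (chr6:5496279-5496528, minus strand): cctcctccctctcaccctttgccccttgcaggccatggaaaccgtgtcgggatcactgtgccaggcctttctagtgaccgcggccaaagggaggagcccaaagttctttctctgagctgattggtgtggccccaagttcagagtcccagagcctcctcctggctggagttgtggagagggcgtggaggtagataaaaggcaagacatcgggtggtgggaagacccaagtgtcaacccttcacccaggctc
*Ucp3* (chr7:100472741-100472990, plus strand): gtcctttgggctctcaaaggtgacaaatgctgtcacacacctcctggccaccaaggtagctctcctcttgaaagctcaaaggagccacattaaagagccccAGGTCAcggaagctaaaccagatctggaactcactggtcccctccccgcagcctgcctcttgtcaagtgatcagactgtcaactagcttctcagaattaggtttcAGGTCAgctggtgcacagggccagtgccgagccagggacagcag
AGGTCA was searched on both strands and was found in the *Ucp3* promoter alone among these 3, at 149 and 44 bases before the start. Over all 32851 promoters of this length, 14.0% held it. Among the 30 members with a promoter in the table, those of *Acadm*, *Acadvl*, *Cd36*, *Cpt1a* and *Ucp3* did. A direct repeat of this hexamer spaced by 1 base, the arrangement that PPARα binds with its partner RXR, was in 0.0335% of all promoters and in none of the members' windows. TGACTCA, the site bound by Jun in AP-1, was in 4.46% of all promoters and likewise in none of these windows, which does not speak to sites elsewhere.

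*Acot1* encodes a cytosolic thioesterase that splits acyl-CoA into free fatty acid and coenzyme A. Its signal was 9.22 and 7.97 in *Jun* f/f hearts and 7.41 and 7.54 in *Jun* Δmu hearts, so that the groups did not overlap, though most of the distance was to *Jun* f/f replicate 1. The difference of -1.12 (standard error 0.39, 95% interval -2.10 to -0.14; limma, adjusted p = 0.896) left 46.1% of the *Jun* f/f signal. *Pdk4*, the kinase that shuts off pyruvate dehydrogenase and thereby spares glucose, was at 12.92 and 11.90 in *Jun* f/f and 11.66 and 11.55 in *Jun* Δmu hearts. Again both *Jun* Δmu arrays were below both controls and *Jun* f/f replicate 1 was the highest. *Pdk4* differed by -0.81 (standard error 0.32, 95% interval -1.61 to -0.01; limma, adjusted p = 0.896), which is 57.1% of the *Jun* f/f signal.

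*Ucp3*, a carrier of the inner mitochondrial membrane, showed the same order of arrays. It was at 8.28 and 7.62 in *Jun* f/f and 7.39 and 7.19 in *Jun* Δmu hearts, a difference of -0.66 (95% interval -1.22 to -0.09; limma, adjusted p = 0.896). Its other probe set read 7.84, 6.93, 6.69 and 6.71 in the same order of hearts and differed by -0.69, with groups that did not overlap, but did not pass the threshold. The promoter of *Ucp3* is the one shown above with 2 such hexamers.

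*Angptl4*, a secreted inhibitor of lipoprotein lipase, did not pass. Its signals of 7.91 and 6.54 in *Jun* f/f and 6.14 and 6.68 in *Jun* Δmu hearts overlapped, with *Jun* f/f replicate 1 far above the other arrays, and the difference of -0.81 had a 95% interval of -1.95 to 0.32. *Acot2*, the mitochondrial paralog of *Acot1*, was level across the hearts at 10.84 and 10.65 against 10.63 and 10.72. It differed by -0.07 (95% interval -0.33 to 0.19), and by -0.16 on its dimmer probe set, which was at -0.40 without *Jun* f/f replicate 1. *Acot1* and *Acot2* are near-identical in sequence, and how far their probes share signal was not examined.

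**Figure D1:**
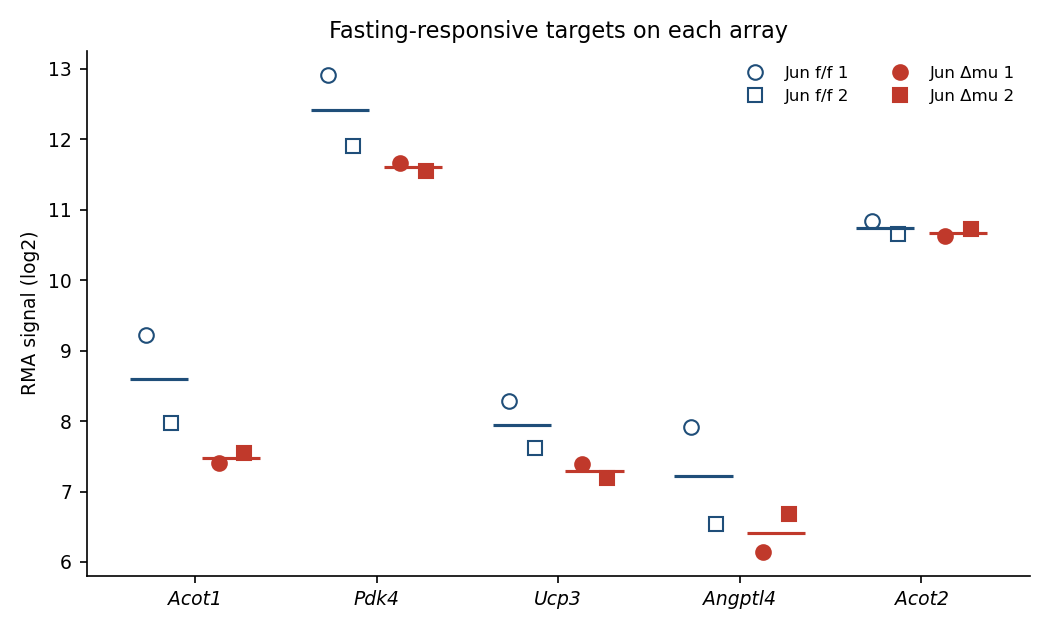
RMA signal (log2, vertical axis) of the 5 measured fasting-responsive targets in each heart, where horizontal lines mark group means, open symbols are controls and filled symbols are *Jun* Δmu (circle: replicate 1, square: replicate 2). *Jun* f/f replicate 1 is the highest array for all 5 genes, and the *Jun* Δmu points of *Acot1*, *Pdk4* and *Ucp3* all sit under the control points.

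The size of these differences rested largely on *Jun* f/f replicate 1. On that array *Acot1* stood 1.58 above the mean of the other 3 arrays, *Angptl4* 1.46, *Pdk4* 1.21 and *Ucp3* 0.88 and 1.07 by its 2 probe sets. In all, 71 of 45037 probe sets (0.158%) were more than 2-fold above the other arrays there, and 4 of the 65 member probe sets (6.15%) were among them. The other arrays had 11 to 15 such probe sets each and 0 among the members. Without *Jun* f/f replicate 1 the differences were -0.49 for *Acot1*, -0.30 for *Pdk4*, -0.33 for *Ucp3* and -0.13 for *Angptl4*. Only that of *Acot1* was still more than 1.3-fold. Without *Jun* f/f replicate 2 they were -1.75, -1.31, -0.99 and -1.50 in turn. With either *Jun* Δmu array left out the differences of *Acot1*, *Pdk4* and *Ucp3* lay between -0.56 and -1.19 and did not pass. A genotype left with 1 array takes its spread from the pair of the other genotype. Calls made with an array left out, here and elsewhere in the text, therefore do not hold the spread of that genotype. With all arrays kept, *Pdk4* did not pass when the 40% of probe sets of lowest signal were left out. By the methods' t-test none of the 3 passed. *Jun* f/f replicate 2 by itself was above the mean of both *Jun* Δmu arrays by 0.49 for *Acot1*, 0.30 for *Pdk4*, 0.33 and 0.23 for the *Ucp3* probe sets and 0.13 for *Angptl4*.

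**Figure D2:**
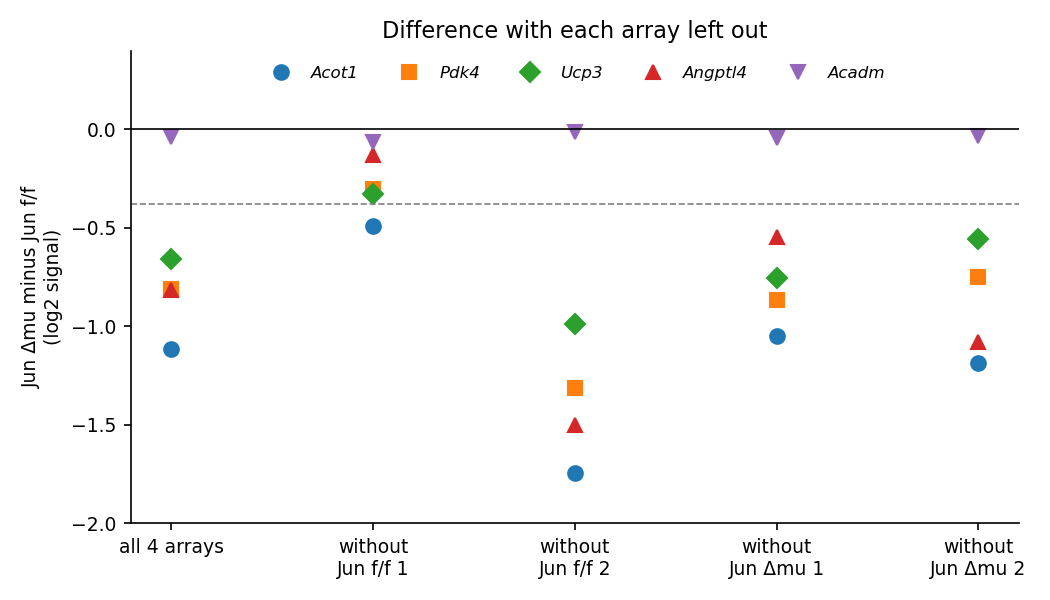
Difference of *Jun* Δmu minus *Jun* f/f (log2 signal, vertical axis) for *Acot1*, *Pdk4*, *Ucp3*, *Angptl4* and the β-oxidation enzyme *Acadm*, with all arrays and with each array left out. The dashed line marks a 1.3-fold decrease; without *Jun* f/f replicate 1 *Acot1* stays below it at -0.49 while *Pdk4*, *Ucp3* and *Angptl4* rise above it, and *Acadm* stays near 0 throughout.

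Some genes of other lists also differed between the 2 *Jun* f/f arrays. Among 10 genes that respond to glucocorticoids, the adrenal hormones of stress and fasting, the summed signal was 13.90 and 13.49 in *Jun* f/f and 13.82 and 13.85 in *Jun* Δmu hearts. Here *Jun* f/f replicate 2 was the lowest array, and *Jun* f/f replicate 1 was close to both *Jun* Δmu arrays. *Mt2* was at 10.80 and 9.61 against 10.40 and 10.53, and *Lcn2* at 8.98 and 8.04 against 8.56 and 7.83, while *Fkbp5* alone passed the threshold and was higher in *Jun* Δmu hearts by 0.39 (0.37 when *Jun* f/f replicate 1 was dropped and 0.32 when *Jun* Δmu replicate 1 was, neither past it). Of 12 clock genes 0 passed, with summed signals of 12.30 and 12.27 in *Jun* f/f and 12.27 and 12.19 in *Jun* Δmu hearts. *Nr1d1* was lowest on *Jun* f/f replicate 1, at 7.71 against 8.09 to 8.47, and *Per1* highest there, at 7.87 against 7.16 to 7.57. The red-cell gene *Slc4a1* was at 7.22 on *Jun* f/f replicate 1 against 6.08 to 6.34 elsewhere, and the summed signal of 4 blood markers at 10.63 against 9.82 to 10.43. Of the other blood markers *Alas2* was also highest there, at 10.45 against 9.62 to 10.32, whereas *Hba-a1* and *Epb42* were not. *Ehhadh*, a peroxisomal enzyme of fatty acid oxidation and a further PPARα target, was at 8.05 on *Jun* f/f replicate 1 against 7.27 to 7.45 elsewhere. The part of what these lists follow in the differences of *Acot1*, *Pdk4* and *Ucp3* was not tested.

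Fatty acid uptake showed no member past the threshold. *Cd36*, the main fatty acid translocase of the heart, was at 13.42 and 13.41 in *Jun* f/f and 13.39 and 13.24 in *Jun* Δmu hearts, a difference of -0.10 (95% interval -0.34 to 0.14). *Fabp3*, the fatty acid-binding protein of heart muscle, differed by -0.02 (95% interval -0.23 to 0.20), and *Lpl*, which frees fatty acids from circulating triglyceride, by -0.04 (95% interval -0.26 to 0.19). For these 3 genes a change of 1.3-fold lay outside the interval. *Slc27a1*, a fatty acid transport protein, was less settled. It was at 8.49 and 9.005 in *Jun* f/f and 8.94 and 9.09 in *Jun* Δmu hearts, with *Jun* f/f replicate 1 lowest and groups that overlapped, and the difference was 0.27 (95% interval -0.19 to 0.73). Without *Jun* f/f replicate 2 it was 0.53, without *Jun* f/f replicate 1 it was 0.01, and its dimmer probe set was at -0.09.

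Release of stored triglyceride was level as well. *Pnpla2*, the first lipase of the droplet, was at 11.40 and 11.29 in *Jun* f/f and 11.19 and 11.46 in *Jun* Δmu hearts, so that *Jun* Δmu replicates bracketed the controls. Hormone-sensitive lipase (*Lipe*) differed by -0.03 and the droplet coat protein *Plin4* by -0.04, and all 3 intervals lay within 1.3-fold. The sign for *Pnpla2* and *Lipe* depended on the array left out. Both are also adipocyte genes. Of 8 measured adipocyte markers 4 were below the array median on every array, with *Adipoq* at 4.40 and 4.93 in *Jun* f/f and 5.40 and 4.96 in *Jun* Δmu hearts and *Car3* at 5.64 and 6.54 against 7.33 and 6.44. Their summed signal, mostly that of *Fabp4*, ran from 13.60 to 13.72. On *Jun* f/f replicate 1, where *Angptl4* was highest, *Adipoq* and *Car3* were at their lowest, but *Fabp4* at 13.61, *Cidea* at 9.57 and the summed signal were at their highest. The part of adipocyte RNA in these values was not tested.

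In the carnitine shuttle 4 of 6 measured genes were lower on both *Jun* Δmu arrays than on both controls, as were 15.9% of all genes, and none passed the threshold. *Cpt1a*, the liver-type carnitine palmitoyltransferase of the outer membrane and itself a PPARα target, had the largest of these differences. It was at 8.80 and 8.56 in *Jun* f/f and 8.33 and 8.48 in *Jun* Δmu hearts, a difference of -0.28 (95% interval -0.58 to 0.02; limma, adjusted p = 0.896). The groups were separate by a narrow margin, and the difference was -0.40 without *Jun* f/f replicate 2, against -0.16 when replicate 1 of that genotype was dropped. Its dimmer probe sets were at -0.16 and -0.06.

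The carnitine-acylcarnitine carrier *Slc25a20* varied little between replicates, at 11.51 and 11.53 in *Jun* f/f and 11.38 and 11.38 in *Jun* Δmu hearts. Its difference of -0.14 (95% interval -0.36 to 0.07) was between -0.15 and -0.14 with any array left out, and its other probe set was at -0.11 with the groups again separate. *Mlycd*, which removes malonyl-CoA, the inhibitor of carnitine palmitoyltransferase, was at 9.60 and 9.55 against 9.43 and 9.43, also a difference of -0.14. *Cpt2* of the inner membrane differed by -0.05 and carnitine acetyltransferase (*Crat*) by -0.00. *Acacb*, which makes malonyl-CoA, was at 10.36 and 10.72 in *Jun* f/f and 10.61 and 10.69 in *Jun* Δmu hearts, a difference of 0.11. A dimmer *Acacb* probe set, below the array median in all hearts, was the 1 member probe set past the threshold upward, at 4.69 and 4.67 against 5.19 and 5.05 (difference 0.44; limma, adjusted p = 0.896), and was at 0.37 and not past it without *Jun* Δmu replicate 1.

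The β-oxidation enzymes themselves differed little. Of 10 measured genes 0 passed the threshold, and their differences ran from -0.09 to 0.26 with a median of -0.05. The acyl-CoA dehydrogenases open each cycle, and the one for medium chains, *Acadm*, was at 13.78 and 13.83 in *Jun* f/f and 13.77 and 13.76 in *Jun* Δmu hearts. That is a difference of -0.04 (95% interval -0.26 to 0.18), so that the 2 genotypes were separate on every array but by far less than 1.3-fold. The long-chain enzyme *Acadl* differed by -0.05 and the very-long-chain enzyme *Acadvl* by -0.01. *Acads*, for short chains, was the exception in size. Its signals of 9.94 and 10.67 in *Jun* f/f and 10.56 and 10.59 in *Jun* Δmu hearts overlapped, with *Jun* f/f replicate 1 alone below the rest. It differed by 0.26 (95% interval -0.33 to 0.86), by 0.63 without *Jun* f/f replicate 2, and by -0.10 without *Jun* f/f replicate 1.

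*Hadha* and *Hadhb* form the trifunctional protein, which carries out the later steps for long chains. *Hadha* was at 13.03 and 13.12 in *Jun* f/f and 12.97 and 13.005 in *Jun* Δmu hearts, a difference of -0.09, and *Hadhb* differed by -0.03. *Hadhb* also had a probe set that pointed the other way, at 0.13. *Hadh*, the hydroxyacyl-CoA dehydrogenase for shorter chains, was at 0.01 by its brightest probe set and -0.10 by the next. The thiolase *Acaa2* was at -0.08, -0.07 and -0.16 by its 3 probe sets, each lower on both *Jun* Δmu arrays. *Ech1* and *Decr1*, which let unsaturated fatty acids enter the cycle, each differed by -0.07. Apart from *Acads*, the intervals of all 9 enzymes lay within 1.3-fold.

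Electron transfer flavoprotein hands the electrons on, and its 3 genes were nearly level. *Etfa* differed by -0.02, *Etfb* by -0.06 and the oxidoreductase *Etfdh* by -0.06. *Etfb* was at 13.09 and 13.12 in *Jun* f/f and 13.01 and 13.08 in *Jun* Δmu hearts, and *Etfdh* at 12.71 and 12.77 against 12.69 and 12.66, so that the groups were separate for both genes. A 1.3-fold change lay outside all 3 intervals.

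Neither regulator passed the threshold. *Ppara* itself was at 9.67 and 9.68 in *Jun* f/f and 9.54 and 9.88 in *Jun* Δmu hearts, with the controls between the *Jun* Δmu replicates. It differed by 0.04 (95% interval -0.30 to 0.37) by the brightest probe set and by -0.10 and -0.03 by the other 2. *Ppargc1a*, the coactivator that drives mitochondrial genes together with PPARα, was at 11.07 and 10.78 against 10.82 and 11.14, a difference of 0.05 (95% interval -0.34 to 0.44). All 5 of its probe sets were above 0, from 0.05 to 0.31. On 1 of them the groups were separate, at 10.16 and 10.17 in *Jun* f/f and 10.40 and 10.56 in *Jun* Δmu hearts, a difference of 0.31 (limma, adjusted p = 0.896) that is below 1.3-fold. Without *Jun* Δmu replicate 1 this probe set was at 0.39, which is more than 1.3-fold.

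**Figure D3:**
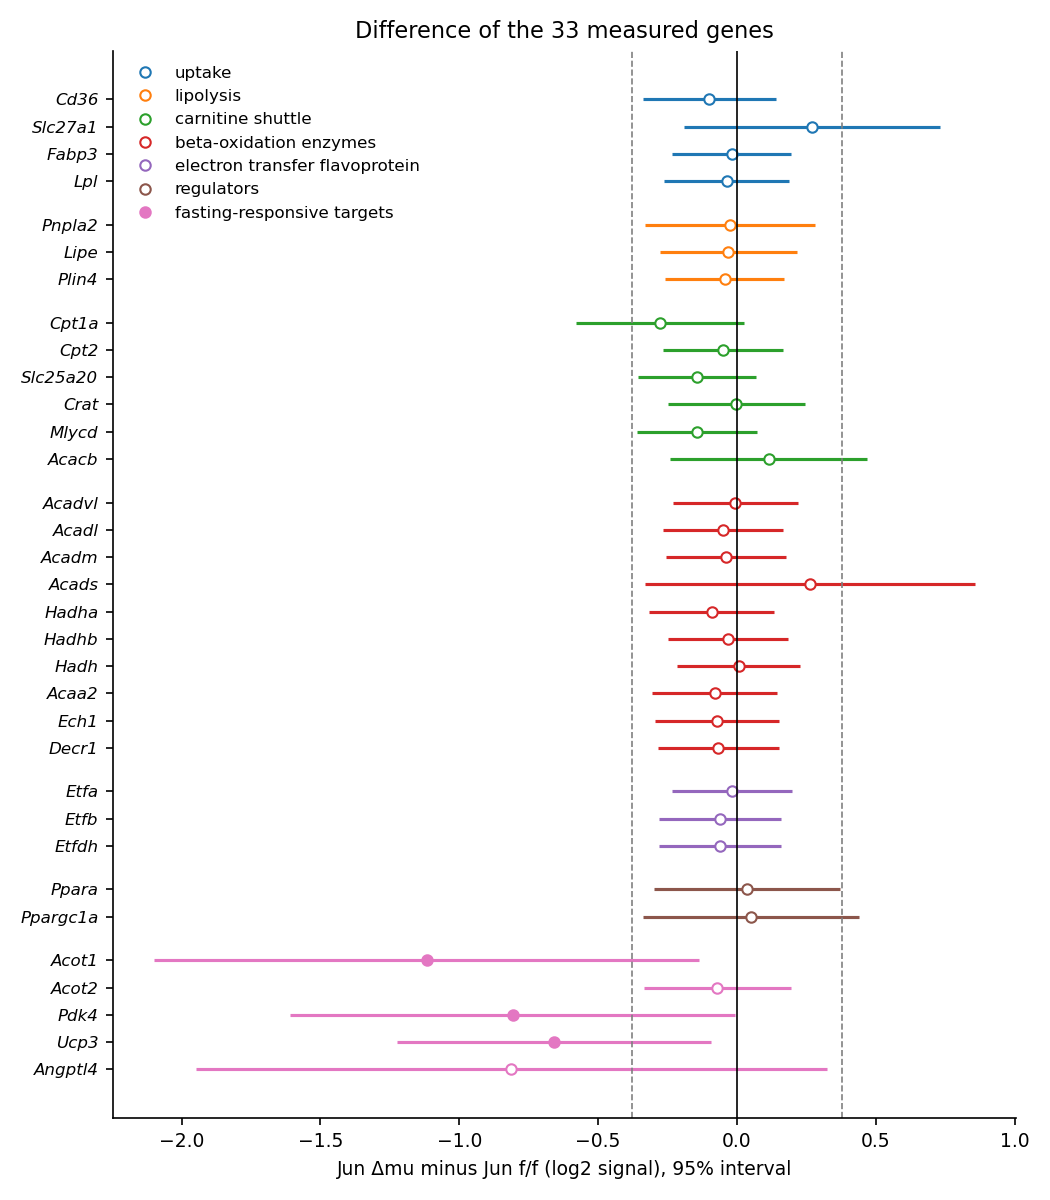
Difference of *Jun* Δmu minus *Jun* f/f (log2 signal, horizontal axis) with its 95% interval for each of the 33 measured genes, by role, with filled points past the threshold and dashed lines at 1.3-fold. The 3 filled points are *Acot1*, *Pdk4* and *Ucp3*, and the intervals of 24 genes lie within the dashed lines.

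Taking the members as a list, 27 of 33 genes were below 0 and 6 above, with a median difference of -0.05 (-0.07 to -0.04 with any array left out), while the median over all genes was 0.01. In 17 of 33 (51.5%) both *Jun* Δmu hearts lay below both *Jun* f/f hearts, and in 0 above them, whereas 15.9% of all genes were lower in this way and 17.8% higher. Quantile normalization left 15 of 33 members, and 14.8% of all genes, in that state. As deposited and counted by probe set, 23 of 65 (35.4%) were lower in this way and 3 higher. The higher ones were 1 probe set each of *Hadhb*, *Acacb* and *Ppargc1a*. The matching share of all probe sets was not counted, and the shares of genes, by brightest probe set, do not stand in for it. Among genes with a mean signal above 10, a limit chosen after seeing the data because most members are bright, the shares were 13 of 25 members and 17.0% of all such genes. Without the fasting-responsive targets 14 of 28 genes were separate in this direction, but their median difference was -0.04 and none passed the threshold. For 24 of the 33 genes the 95% interval lay within 1.3-fold in both directions. The 9 genes whose interval did not were *Slc27a1*, *Cpt1a*, *Acacb*, *Acads*, *Ppargc1a*, *Acot1*, *Pdk4*, *Ucp3* and *Angptl4*.

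The arrays did not share 1 order across the roles. The median deviation from the 4-array mean among fasting-responsive targets was 0.91 and -0.07 in *Jun* f/f and -0.35 and -0.43 in *Jun* Δmu hearts. For the β-oxidation enzymes it was -0.00 and 0.05 against -0.01 and -0.02, and for the carnitine shuttle 0.04 and 0.07 against -0.06 and -0.04. Thus the array that was highest for fasting-responsive targets was near 0 for the enzymes. Uptake genes were at 0.04 and 0.02 against 0.01 and -0.00. The median difference was -0.81 for fasting-responsive targets, -0.10 for the carnitine shuttle, -0.06 for electron transfer flavoprotein, -0.05 for β-oxidation, -0.03 for uptake and for lipolysis and 0.04 for the regulators. Without *Jun* f/f replicate 1 that of the fasting-responsive targets was -0.30, and -1.31 when replicate 2 of that genotype was dropped. Over single genes, *Jun* f/f replicate 2 was the highest array for 17 of 33 and *Jun* f/f replicate 1 for 11, while *Jun* Δmu replicate 1 was highest for 0 and lowest for 14.

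**Figure D4:**
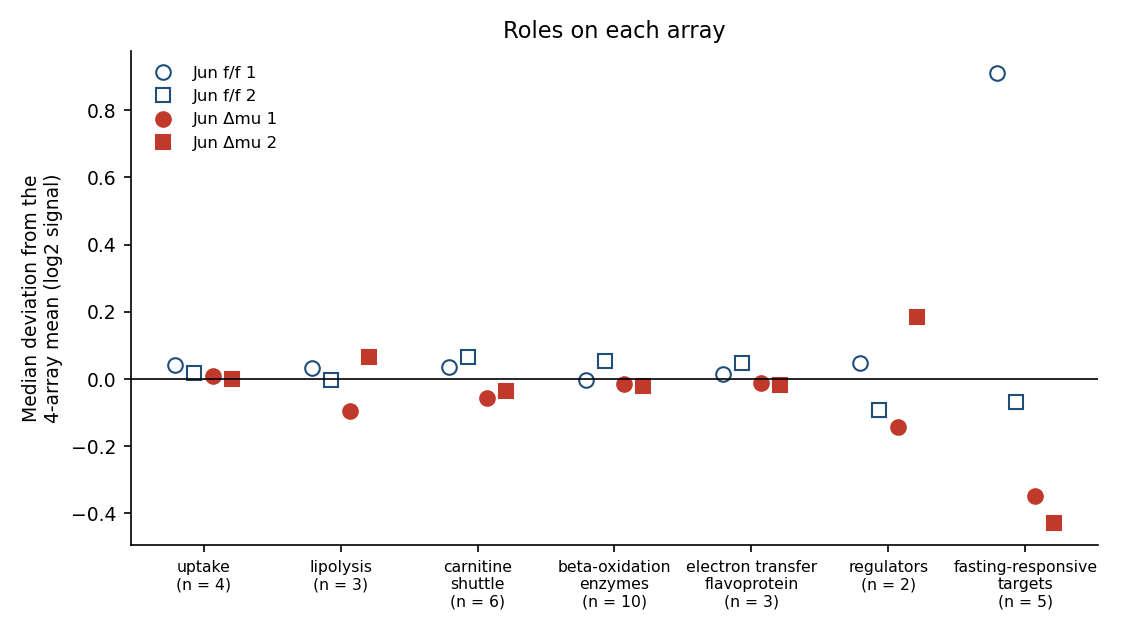
Median deviation of the genes of each role from their 4-array mean (log2 signal, vertical axis) on each array, where open symbols are controls and filled symbols are *Jun* Δmu (circle: replicate 1, square: replicate 2). Fasting-responsive targets reach 0.91 on *Jun* f/f replicate 1, whereas every other role stays within 0.19 of 0 on all arrays.

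The wider pathway was read from 95 further genes, of which 86 were measured. Of these 2 were higher and 1 lower past the threshold, their median difference was -0.00, and 16 of 86 (18.6%) were lower with separate groups. Over all genes 0.665% passed upward, 0.786% passed downward and 15.9% were lower with separate groups. *Abcd2*, a peroxisomal transporter of very long-chain acyl-CoA, was at 5.80 and 5.32 in *Jun* f/f and 4.90 and 4.97 in *Jun* Δmu hearts, a difference of -0.63. Of its 4 probe sets the next in signal also passed, at -0.83, and lay between -1.13 and -0.53 with any array left out. The dimmest were at -0.18 and -0.35 and did not pass. *Slc27a3*, of the fatty acid transport protein family, was higher by 0.46, at 3.45 and 3.94 against 4.13 and 4.18, and had been listed by the study on these arrays. The peroxisomal thiolase *Acaa1b* was higher by 0.41, at 3.35 and 3.02 against 3.66 and 3.54. All 3 carried low signals, and with the low-signal filter 1 further pathway gene passed. *Abcd2* differed by -0.39 and *Slc27a3* by 0.22 without *Jun* f/f replicate 1, and *Acaa1b* by 0.24 without *Jun* f/f replicate 2; the last pair did not pass then, nor did any of the 3 without *Jun* Δmu replicate 1.

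Among further β-oxidation enzymes 7 of 14 were lower with separate groups, against 15.9% of all genes, and the median difference was -0.05. The thiolase *Acat1* differed by -0.16 and the isomerase *Eci1* by -0.14. Among the other genes in the fasting-responsive group none of 16 passed by the brightest probe set, with *Acot13* at 0.09 and *Pdk2*, a sister kinase of *Pdk4*, at 0.04. The median difference of these 16 genes was 0.02, with 9 above 0 and 7 below. Nearest to the threshold were *Slc25a34*, a mitochondrial carrier, at -0.35 and *Pdp1*, the phosphatase that opposes the Pdk kinases, at 0.32, both with separate groups. *Pdk1* was at 0.08, but a dimmer probe set of it passed at -0.46. That call was lost when *Jun* f/f replicate 1 (-0.36) or *Jun* Δmu replicate 1 (-0.42) was dropped. None of the brightest genes of the remaining roles passed. *Fabp4* and *Vldlr* of the uptake genes were at -0.04 and -0.08, *Gpam* of triglyceride synthesis at -0.16, *Crot* of peroxisomal carnitine transfer at -0.19 with separate groups, and the ketone-body enzyme *Oxct1* at 0.02. *Bdh1*, also of ketone use, was at 10.62 and 10.93 in *Jun* f/f and 10.61 and 11.52 in *Jun* Δmu hearts, and the regulator *Esrra* differed by 0.06.

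Other cell types were read from fixed marker lists. Endothelial markers were lower on both *Jun* Δmu arrays than on both controls for 7 of 8 genes, as were 15.9% of all genes. Their median difference was -0.20, with *Tie1* at -0.24, though none passed the threshold. The summed signal of this list was 12.23 and 12.29 in *Jun* f/f against 12.09 and 12.09 in *Jun* Δmu hearts. *Cd36* and *Lpl* are also found on or at endothelium, and the part of endothelial RNA in the small differences of the members was not tested. Atrial genes stood apart on *Jun* Δmu replicate 2, where *Sln* was at 8.11 against 3.81 to 4.15 elsewhere. With that array left out *Acot1* differed by -1.19 and *Pdk4* by -0.75, neither past the threshold, and *Slc25a20* by -0.14. The part of atrial RNA was not tested. Fibroblast and macrophage lists had 0 genes past the threshold. Of 8 fibroblast markers 4 were higher with separate groups and 0 lower, with *Lum* at 0.32 and *Dpt* at 0.31. Of 6 macrophage markers 2 were lower in this way, with *Fcgr1* at -0.34, and 1 was higher. Over all genes 17.8% were higher with separate groups. The part of fibroblast and macrophage RNA was not tested. Of 4 blood genes *Alas2* passed at -0.49 (-0.22 without *Jun* Δmu replicate 2).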

How the data were processed

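Whole-heart RNA, extracted with TRIzol, was measured for 4 mice, 2 per genotype, on 1 array each. The authors deposited log2 signals for every probe set, computed by RMA (background correction, normalization between arrays and summary of probes); the submitters' processing notes credit the oligo package of R and give no version. The values are unfiltered and carry no detection calls. Depth does not apply to arrays, and their number (2 residual degrees of freedom) limits the precision. No more is given on how the 4 hearts were chosen. The p-values and intervals by limma combine the spread between them with a spread shared across all probe sets. For genes that varied little between replicates, the width of the interval comes mostly from that shared part.

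After removal of 64 AFFX controls, 45037 probe sets were fitted as deposited with a genotype term in limma 3.58.1 under R 4.3.3 (lmFit, eBayes, two-sided), and p-values were adjusted by Benjamini and Hochberg's method across all of them. Differences are *Jun* Δmu minus *Jun* f/f. The methods' threshold of 1.3-fold with p under 0.05 was applied to limma in place of Student's test. The platform annotation gives a single gene symbol to 34945 probe sets, more than 1 to 932 and no symbol to 9160. Each gene was counted by its probe set of highest mean signal. Promoters came from a RefSeq table on GRCm38.p6. Figures were drawn with matplotlib 3.10.9.

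The members, the lists of further pathway genes and the marker lists were chosen with earlier results of these data known. Named were all members by brightest probe set, with some other probe sets where call or direction differs, and *Jun*. Further pathway genes past the threshold or among the brightest of their role were named too, as were markers farthest apart between arrays. Dimmer probe sets of opposite sign, none past the threshold, are given only here for *Fabp3* (0.01), *Lipe* (0.10), *Cpt2* (0.05) and *Crat* (0.10 and 0.07). The same holds for *Hadhb* (0.03), *Hadh* (-0.01), *Decr1* (0.04) and *Etfdh* (0.004). Markers given as checks of a cell type or for a group difference were added after their values were seen. So were *Ehhadh*, *Slc25a34*, *Pdp1* and *Pdk1*, and further probe sets of *Slc25a20*, *Acaa2*, *Ppargc1a* and *Abcd2*. Alternatives were a trended robust prior, the methods' t-test (plain and adjusted), a replicate block, removal of the 40% of probe sets with lowest signal, quantile and median normalization, linear means, specific probe sets, the gene median, and leaving out each array, where a genotype left with 1 array takes its spread from the pair of the other genotype. Deviations of same-numbered arrays from their group means correlated at r = 0.0281. The labels do not say whether the numbers pair the hearts, and with 2 arrays per genotype this value cannot settle it. On simulated data with 45037 probe sets, shifts of 0.5, 1 and 2 passed the threshold in 84%, 98% and 100% of 50 probe sets each and were called after adjustment in 0%, 22% and 72%.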

Additional observations from a re-analysis of the deposited data

How the results depend on the processing

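With 4 arrays, no member was called after adjustment, and in simulated data 0% of probe sets shifted by 0.5 were. Among settings that keep all arrays, 316 of 330 results of single members kept direction and side of the threshold. That count says little about the 3 calls. By the main fit 30 of 33 genes did not pass, and settings such as the t-test and the trended prior leave the difference itself unchanged. The methods' t-test gave 200 probe sets past the threshold in place of 688, 1 member probe set (*Acacb*) in place of 4, 0 members lower in place of 3 and 0 further pathway genes in place of 3; *Acot1* (-1.12), *Pdk4* (-0.81) and *Ucp3* (-0.66) did not pass. After adjustment that test called 0 in each count, *Jun* at -1.57 included. The low-signal filter left 1 further pathway gene and ended the call of *Pdk4*. Taking the median of a gene's probe sets moved the carnitine shuttle to -0.063 and electron transfer flavoprotein to -0.029, and turned *Lipe* to 0.036, *Cpt2* to 0.00028, *Crat* to 0.10, *Hadhb* to 0.13, *Hadh* to -0.10 and *Ppara* to -0.093. With specific probe sets alone *Hadh* was at -0.10.

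With each array left out in turn, probe sets past the threshold ranged from 739 to 3452, the latter without *Jun* f/f replicate 2, member probe sets from 1 to 9, members lower from 0 to 5, members higher from 0 to 2 and further pathway genes from 2 to 6. The median of fasting-responsive targets ranged from -1.31 to -0.30, of uptake from -0.056 to -6.1e-05, of β-oxidation from -0.079 to -0.024 and of electron transfer flavoprotein from -0.077 to -0.031. Signs turned within -0.040 to 0.00052 for *Fabp3*, -0.16 to 0.11 for *Pnpla2*, -0.11 to 0.049 for *Lipe*, -0.082 to 0.077 for *Crat*, -0.068 to 0.30 for *Acacb*, -0.053 to 0.040 for *Acadvl*, -0.10 to 0.63 for *Acads*, -0.032 to 0.045 for *Hadh*, -0.038 to 0.0036 for *Etfa*, -0.13 to 0.21 for *Ppara*, -0.11 to 0.21 for *Ppargc1a* and -0.16 to 0.020 for *Acot2*. The cause was not tested. With the replicate number as a block 683 probe sets passed, with 3 members lower and 4 member probe sets in all, and no call of a member changed. Each member's direction held under quantile and median normalization, linear means and a trended prior. The settings for the members with separate groups, another normalization and a signal above 10, were added after seeing the data.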
